A study of Saccharomyces cerevisiae with 14 samples.

Results

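The mRNAs of 10 wall mannoproteins of budding yeast were followed through CRAC libraries, in which RNA fragments crosslinked by UV light to a tagged protein in living cells are recovered and sequenced as cDNA. They were taken by name and not by their read numbers: the *TIP1* and *TIR* genes (*TIP1*, *TIR1*, *TIR2*, *TIR3*, *TIR4*), *CWP1*, *CWP2*, *SED1*, *CCW12* and *CCW14*, which are 10 of 5838 protein-coding genes used. All strains derived from BY4741, a haploid laboratory yeast. Hel2, the E3 ubiquitin ligase that recognises collided ribosomes, carried a genomic His-TEV-Protein A tag (Hel2-HTP::URA3) in cells with wildtype *NEW1* or with new1-delta::KanMX6 (*new1Δ*), each grown at 20 °C and at 30 °C. New1, a homologue of elongation factor eEF3, carried the same tag (New1-HTP::URA3) in wildtype cells at 20 °C, and untagged BY4741 cells at both temperatures served as control. Each of these 7 groups had 2 libraries. Cultures in synthetic medium lacking tryptophan were crosslinked at an optical density of about 0.5. The paper names medium that also lacked uracil at 20 °C. Beads, RNase times, gel and purification steps and sequencing runs differed between the temperatures, so an effect of temperature and one of library preparation cannot be told apart.

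The wall of *S. cerevisiae* is a mesh of glucan and chitin with an outer layer of mannoproteins, many of which are made as precursors with a glycosylphosphatidylinositol (GPI) anchor and then linked covalently to glucan. *TIP1* and the *TIR* genes form a family whose products are rich in serine and alanine and which is known for induction by cold shock, and the *TIR* genes also by lack of oxygen. Cwp1 and Cwp2 are mannoproteins of growing cells. Sed1 is a wall glycoprotein known from stress and stationary phase, Ccw12 is a small and abundant wall protein of growth sites, and Ccw14 lies in the inner layer of the wall. Hel2 marks the ribosomes of a collision, and loss of New1 is known to make ribosomes queue at stop codons that follow certain codons for lysine and arginine. The libraries count RNA bound by the tagged protein and were not set against total RNA, so a change in mRNA amount and a change in binding per mRNA cannot be told apart.

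The end of the coding sequence decides whether an mRNA belongs to the classes that the study calls affected by loss of New1, and none of the 10 mRNAs does. In the R64 annotation of RefSeq, 674 of the 5838 genes (11.5%) end on a codon of the strongly affected class, 936 (16.03%) on one of the mildly affected class and 4228 (72.4%) on another codon. *TIP1*, *TIR1*, *TIR2*, *TIR3*, *CWP2* and *SED1* end on the leucine codon UUA, *CWP1* and *CCW12* on the leucine codon UUG, *TIR4* on the leucine codon CUA and *CCW14* on the isoleucine codon AUC. The last 30 bases of the coding strand of 6 of them are printed here because they hold each of the 4 codons and the mRNAs on which the results turn, with the last sense codon in capitals before the stop codon.
CCW12 (chrXII:369697-369726, minus strand): ttggctggtgccgctgctttgttgTTGtaa
CWP2 (chrXI:259502-259531, plus strand): gctctagctgctgctgctatgttgTTAtaa
SED1 (chrIV:601780-601809, plus strand): ttggctggtgttgctatgttattcTTAtaa
CCW14 (chrXII:904411-904440, plus strand): attgctgctgttgccgctatgttaATCtaa
TIR1 (chrV:175983-176012, plus strand): gttgtcgcagctgccgctatgttgTTAtaa
TIR4 (chrXV:345769-345798, plus strand): ttagctgctgttgccgccatgctaCTAtga
All 6 are exonic, and each of the 10 genes has an unspliced coding sequence. Serine and threonine made up between 27.2% (*CWP2*) and 42.4% (*CCW14*) of the codons, which placed the lowest of the 10 above 98.6% of all genes, whose median was 13.8%. *TIR1* and *TIR2* shared 15 stretches of 30 bases, 2.04% and 2.06% of those in each gene, and no such stretch of the other 8 genes occurred in another gene. *TIR4*, *SED1* and *TIR1* repeat 23.6%, 16.2% and 15.4% of their own 30-base stretches, and reads that lie within such repeats may have more than 1 place in the gene.

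The tagged libraries held between 330299 and 1433090 reads on the genes used, at 3.02 to 11.3 reads per distinct cDNA, and reads were not collapsed. In untagged cells the 20 °C libraries reached only 356 and 1793 reads, which hardly measures the background, and the 30 °C libraries 310279 and 23629. The second *new1Δ* library at 20 °C was the shallowest tagged library, with reads on 2055 genes against 2951 to 5008 in the other Hel2-HTP libraries. Of the 4 *new1Δ* libraries, 3 had 0 reads of *NEW1* and 1 had 7, against 105 to 1192 in the 4 wildtype Hel2-HTP libraries. The labels do not say whether the libraries of a group came from separate cultures, and the paper's methods call the replicates of all CRAC samples biological. Reads are given below as CPM, reads per 1000000 reads on the genes used. Where a library held 0 reads of a gene, the limit given is that of 3 reads and covers counting error only.

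Of the 10 mRNAs, 6 were found in every tagged library and the other 4 were hardly found at all. Ranked by mean CPM per kb of the annotated feature over the 10 tagged libraries, *CCW12* stood at place 6 of 5689 genes, *CWP2* at 29, *SED1* at 54, *CWP1* at 176, *CCW14* at 321 and *TIP1* at 376. The ranges over libraries of neighbouring mRNAs in this order overlapped, although *CCW12* was the highest of the 10 per kb within each tagged library. The cold-induced *TIR* mRNAs stood far lower, *TIR1* at place 4111, *TIR4* at 4188, *TIR3* at 4882 and *TIR2* at 5537.

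**Figure D1:**
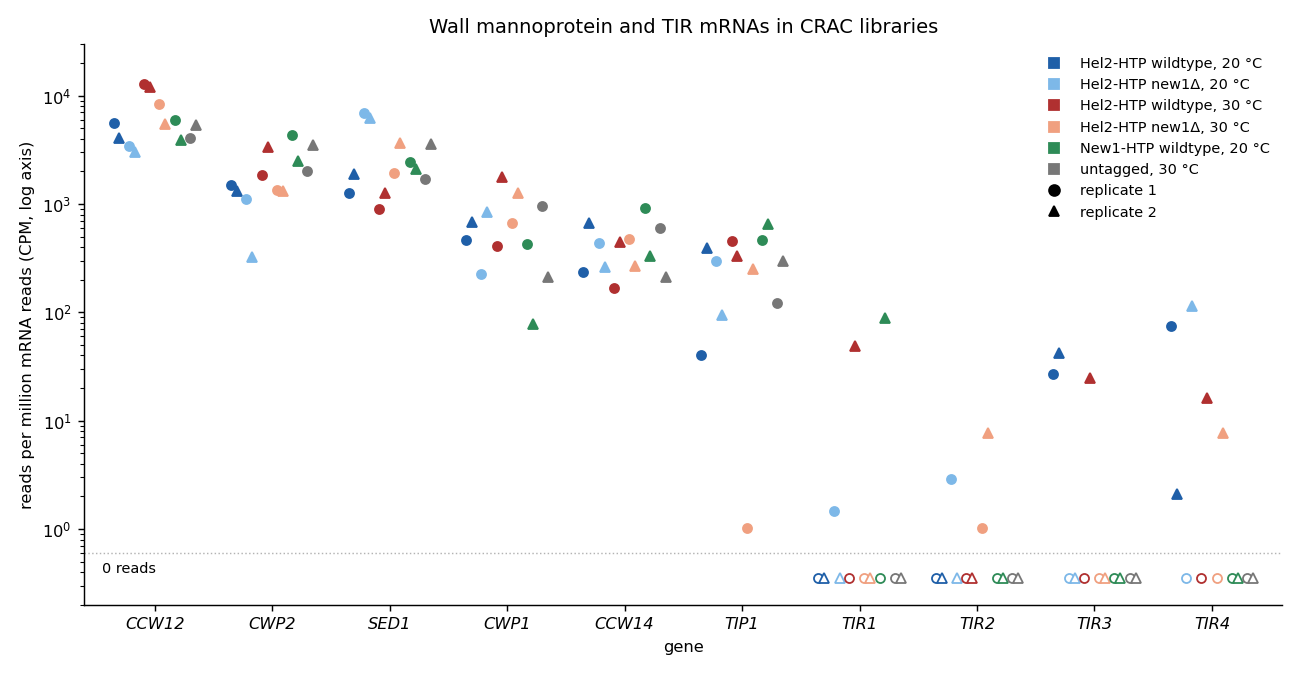
Levels in CPM (log axis) of the 10 mRNAs in each tagged library and in the untagged libraries at 30 °C, with circles for replicate 1, triangles for replicate 2 and open symbols below the dotted line for 0 reads. *CCW12*, *CWP2*, *SED1*, *CWP1*, *CCW14* and *TIP1* have reads in all 10 tagged libraries, and *TIR1* to *TIR4* have reads in 3 to 5 of them.

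Summed over the 10 tagged libraries, *TIR1* had 110 sense reads, *TIR2* 6, *TIR3* 89 and *TIR4* 106. Distinct cDNAs, which include those of the antisense strand, numbered 31, 5, 11 and 15 in the same order. Of the 4, *TIR3* alone had more reads in both wildtype Hel2-HTP libraries at 20 °C than in both at 30 °C. *TIR1* had 0 reads in both wildtype Hel2-HTP libraries at 20 °C and 0 and 18 at 30 °C, and its reads came mainly from the second New1-HTP library, which held 91. *TIR3* had 20 and 60 reads in wildtype Hel2-HTP at 20 °C, from 1 and 6 cDNAs, against 0 and 9 at 30 °C. It had 0 reads in all 4 *new1Δ* and both New1-HTP libraries. *TIR4* had 56 and 3 reads in wildtype at 20 °C and 0 and 6 at 30 °C, and the 38 reads of the second *new1Δ* library at 20 °C came from 1 cDNA. *TIR2* was seen only in *new1Δ*, with 2 and 0 reads at 20 °C, 1 and 3 at 30 °C and 0 in every other library. The untagged libraries held 0 reads of all 4. A count of 0 allowed up to 4.02 and 2.09 CPM in the wildtype Hel2-HTP libraries at 20 °C and up to 3.53 and 8.19 CPM at 30 °C, so lower levels were not detectable at this depth. *TIR1* and *TIR2* did not pass the filter on low counts in any tested comparison. *TIR3* and *TIR4* passed it in each comparison but that with untagged cells, were not called, and are given as reads only because whole groups stood at 0.

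**Figure D2:**
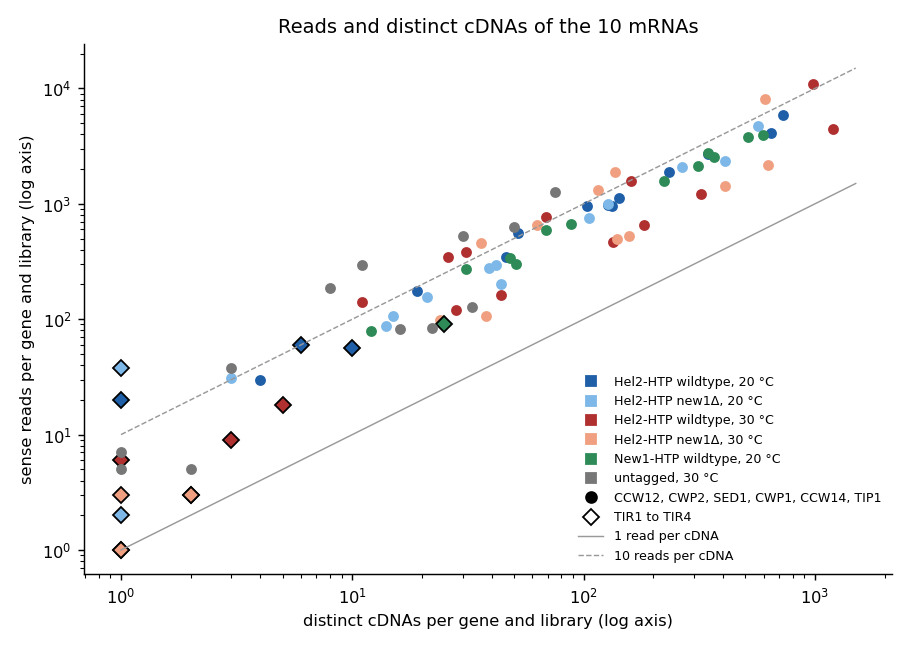
Sense reads against distinct cDNAs for each of the 10 mRNAs in each tagged library and the untagged libraries at 30 °C, on log axes, with lines at 1 and 10 reads per cDNA and diamonds for *TIR1* to *TIR4*. The diamonds lie at 25 cDNAs or fewer, and 1 of them stands at 38 reads for 1 cDNA. The cDNA number includes antisense reads.

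In wildtype cells the reads of the 10 mRNAs made up 0.916% and 0.910% of all gene reads in the cold, against 1.66% and 1.93% at 30 °C. The lower share at 20 °C was carried mainly by *CCW12*. Its level was 5552 and 4104 CPM at 20 °C and 12770.4 and 12025.7 CPM at 30 °C, without overlap. In *new1Δ* it was 3439 and 3034 CPM at 20 °C and 8302 and 5497 CPM at 30 °C, again without overlap. The difference between 20 °C and 30 °C was −1.38 on the log2 scale in wildtype (SE 0.28, n = 2 against 2, edgeR's quasi-likelihood test, adjusted p = 0.30) and −1.45 in *new1Δ* (SE 0.28, adjusted p = 0.065, edgeR). Neither passed the threshold of 0.05. In wildtype, 0 of 4831 genes (0%) passed it and 115 had an unadjusted p under 0.05, with a median over all genes of −0.10. In *new1Δ*, 6 genes (0.124%) passed, all lower at 20 °C, and *CCW12* lay close to the median over all genes of −1.04. That median weighs genes with few reads like those with many, and the second *new1Δ* library at 20 °C had reads on only 2055 genes. *CCW12* passed the threshold in wildtype with DESeq2 (adjusted p = 1.3e-04) and with the replicate block in edgeR (adjusted p = 0.019).

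The other mRNAs did not share 1 direction between the temperatures. *CWP2* stood at 1493 and 1329 CPM at 20 °C and at 1872 and 3326 CPM at 30 °C in wildtype, lower in the cold without overlap. In *new1Δ* its values were 1108 and 324 CPM at 20 °C and 1361 and 1325 CPM at 30 °C. *SED1* went the other way, with 1273 and 1880 CPM at 20 °C and 903 and 1266 CPM at 30 °C in wildtype, where the groups nearly touched. In *new1Δ* it stood at 6972 and 6261 CPM at 20 °C and at 1948 and 3642 CPM at 30 °C (log2 difference 0.79, SE 0.47, adjusted p = 0.63, edgeR). The log2 differences were −0.92 for *CWP2* (SE 0.61) and 0.54 for *SED1* (SE 0.47) in wildtype, and both had an adjusted p of 1 in edgeR. *CWP1*, *CCW14* and *TIP1* overlapped between the temperatures in both strains. *TIP1*, named for its induction by temperature shock, had 40.2 and 392 CPM at 20 °C and 451 and 330.2 CPM at 30 °C in wildtype, so its replicates at 20 °C differed more than the temperatures. Of the 8 mRNAs tested, 4 (*CCW12*, *CWP2*, *SED1* and *TIR3*) did not overlap between the temperatures in wildtype and 3 (*CCW12*, *CWP2* and *SED1*) in *new1Δ*. Of all genes tested, 34% and 36.1% did not overlap.

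*SED1* was the only one of the 10 mRNAs that was called in *new1Δ*, and it had more reads at both temperatures. The strains were compared on the same 8 libraries as the temperatures. At 20 °C it stood at 1273 and 1880 CPM in wildtype and at 6972 and 6261 CPM in *new1Δ*, where both libraries lay far above both wildtype libraries. At 30 °C it stood at 903 and 1266 CPM in wildtype and at 1948 and 3642 CPM in *new1Δ*, also without overlap. Mean CPM was 4.20-fold higher in *new1Δ* at 20 °C and 2.58-fold higher at 30 °C, and the ratio was above 1 in each of the 4 pairs of libraries, from 2.16 to 5.48. The fitted log2 change was 1.95 at 20 °C (SE 0.44, edgeR, replicate pair as a block, adjusted p = 0.0016) and 1.58 at 30 °C (SE 0.43, adjusted p = 0.048, edgeR). At 20 °C, 33 of 4831 genes (0.683%) were higher in *new1Δ* and 34 (0.704%) lower, which makes 1.39% in all, and at 30 °C 24 genes (0.497%) were higher and none lower, with 106 genes at an unadjusted p under 0.05. The median over all genes was −1.12 at 20 °C and 0.13 at 30 °C. The change at 20 °C minus that at 30 °C was 0.38 for *SED1* (SE 0.60, adjusted p = 1 in edgeR), and 6 genes (0.124%) passed that test, none of the 10 among them.

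Limits of the *SED1* calls came from the replicate block, the number of libraries and the background. Without the replicate block the adjusted p was 0.12 at 20 °C and 0.55 at 30 °C in edgeR. Both calls thus rest on the block, while the paired libraries varied together only weakly (r = 0.015 at 20 °C and 0.054 at 30 °C). The call at 30 °C was also lost with no filter, with at least 10 reads in every library and with only the libraries compared. Leaving out any 1 of the 8 Hel2-HTP libraries ended the call at 30 °C, and leaving out any 1 of the 4 libraries at 20 °C, or the second wildtype library at 30 °C, ended that at 20 °C, while the log2 change stayed between 1.27 and 2.74 at 20 °C and between 1.28 and 1.80 at 30 °C. Untagged cells at 30 °C held *SED1* at 1689 and 3555 plain CPM, above both wildtype Hel2-HTP libraries at 30 °C. The fitted log2 difference of wildtype Hel2-HTP from untagged cells was only −0.15 (SE 0.62, adjusted p = 0.997, edgeR). In plain CPM the first untagged value lay below both *new1Δ* libraries at 30 °C (1948 and 3642 CPM), and the second lay between them. The TMM factors in the fit with untagged cells were 1.63 and 1.84 for these and 0.796 and 0.622 for *new1Δ*. Plain CPM thus places untagged cells higher against *new1Δ* than TMM does. At 20 °C the untagged libraries had 0 *SED1* reads, which in libraries of that size allows up to 8427 and 1673 CPM. The first could therefore not bound the background there below the level in *new1Δ*, and both held few reads on the genes used.

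By the last codon *SED1* was among few. At 20 °C, 26 of the 33 genes that were higher in *new1Δ* end on a strongly affected codon and 2 (*FPR1*, *TIM9*) on a mildly affected one, and the other 5 were *ACT1* (actin), *EFT1*, *EFT2*, *HSP12* and *SED1*. At 30 °C, 21 of 24 were of the strongly affected class, 1 (*RTC3*) of the mildly affected class, and the remaining 2 were *HSP12* and *SED1*. These genes are named after their values were seen. The paper drew both affected classes from *new1Δ* to wildtype ratios of Hel2 reads in 3′ untranslated regions, measured in these same libraries. The many genes of the strongly affected class among those called are therefore no independent result. Nor is the place of *SED1* among few. *EFT1* and *EFT2*, which encode elongation factor eEF2, are near-identical copies whose reads cannot be assigned with certainty. Of genes outside both affected classes, 3475 were tested, with a median change of −1.37 at 20 °C and −0.06 at 30 °C. These medians weigh genes with few reads like those with many. Over genes of all classes with reads in both libraries of a pair, the median log2 ratio of CPM at 20 °C was −0.22 and 0.36.

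The remaining wall mRNAs were not called in *new1Δ*. *CWP2*, with the values given above, did not overlap between the strains at either temperature and had the lower values in *new1Δ*. Its fitted change was −1.37 at 20 °C (SE 0.58, adjusted p = 0.49, edgeR) and −0.63 at 30 °C (SE 0.54, adjusted p = 1, edgeR). *CCW12* was also lower in *new1Δ* in each library than in either wildtype library of the same temperature, with a fitted change of −0.71 (SE 0.33, adjusted p = 0.75, edgeR) and −0.62 (SE 0.33, adjusted p = 1, edgeR). At 20 °C these values lay near or above the median over all genes tested, and at 30 °C below it. Another median, over genes with reads in both libraries of a pair, was −0.22 and 0.36 at 20 °C as a log2 ratio of CPM. *CCW12* (−0.69 and −0.44) and *CWP2* (−0.43 and −2.04) lay below it in both pairs. *CWP1* and *CCW14* overlapped between the strains at both temperatures. *TIP1* had 1 read (1.03 CPM) in the first *new1Δ* library at 30 °C and 249 CPM in the second, against 451 and 330.2 CPM in wildtype. Of the 8 tested, 4 did not overlap between the strains at 20 °C, *TIR3* with 0 reads in *new1Δ* among them, and 4 at 30 °C, beside 31.2% and 32.1% of all genes.

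**Figure D3:**
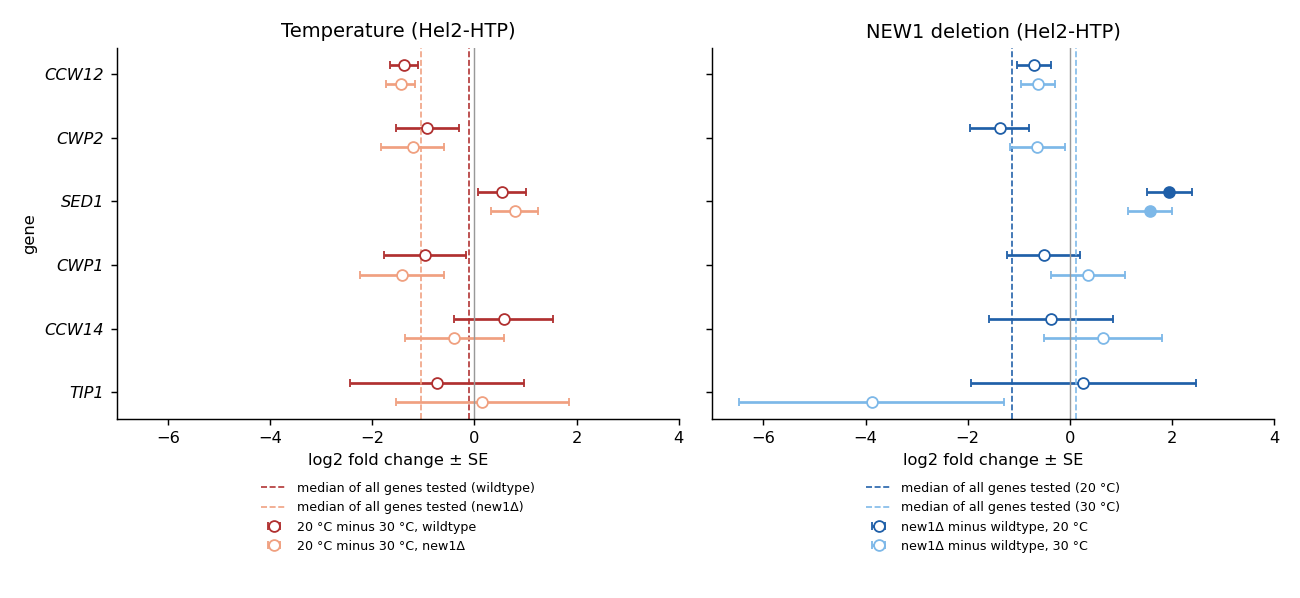
Fitted log2 fold changes with standard errors for 6 mRNAs in Hel2-HTP libraries, between 20 °C and 30 °C (left) and between *new1Δ* and wildtype (right), with filled points for an adjusted p under 0.05 and dashed lines at the median over 4831 genes. *SED1* in *new1Δ* holds the 2 filled points, at 1.95 and 1.58.

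Among the reads of the 10 mRNAs, the order of *CCW12* and *SED1* relative to each other turned with the strain at 20 °C. *CCW12* held 60.6% and 45.1% of these reads in wildtype at 20 °C and 27.6% and 27.7% in *new1Δ*, while *SED1* held 13.9% and 20.7% in wildtype but 55.9% and 57.2% in *new1Δ*. At 30 °C *SED1* held 5.45% and 6.58% in wildtype and 15.3% and 29.7% in *new1Δ*, with *CCW12* above it in each library. These are shares of reads and not of molecules, since the genes differ in length. Together the 10 mRNAs held 1.25% and 1.09% of gene reads in *new1Δ* at 20 °C and 1.28% and 1.22% at 30 °C.

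**Figure D4:**
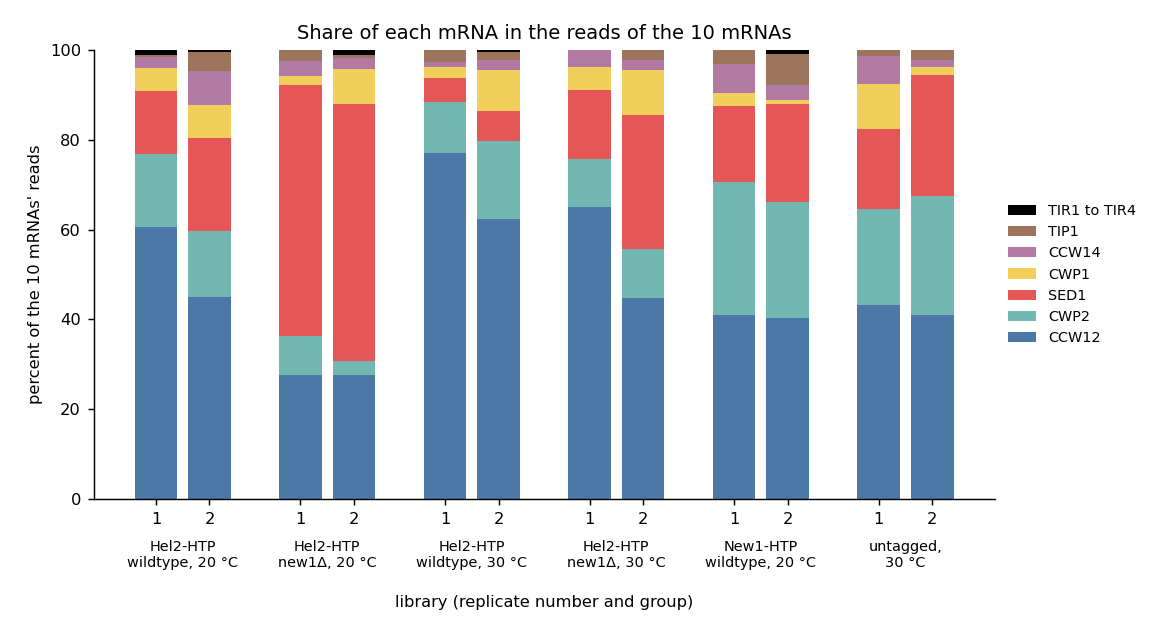
Percent of the reads of the 10 mRNAs that fell on each mRNA, with 1 bar per library and the *TIR* mRNAs summed. *SED1* is above 55% in both *new1Δ* libraries at 20 °C and below 30% in every other library.

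New1-HTP libraries were set beside Hel2-HTP libraries of wildtype cells at 20 °C, where by the paper's methods both were prepared alike except for a slightly longer RNase treatment and a larger volume of beads for New1-HTP. *CWP2* stood at 4292 and 2487 CPM with New1-HTP and at 1493 and 1329 CPM with Hel2-HTP, and *SED1* at 2424 and 2097 CPM against 1273 and 1880 CPM. *TIP1* stood at 468 and 657 CPM against 40.2 and 392 CPM. All of these were higher with New1-HTP without overlap, and *CWP1* was lower, at 425 and 77.6 CPM against 467 and 681 CPM. *CCW12* overlapped, with 5908 and 3889 CPM against 5552 and 4104 CPM. None was called. The fitted log2 differences were 1.16 for *CWP2* (SE 0.64), 1.23 for *TIP1* (SE 1.29) and −1.35 for *CWP1* (SE 1.00), each with an adjusted p of 1 in edgeR. Of all 4149 genes tested, 2 (0.0482%) passed and 87 had an unadjusted p under 0.05. Among the 8 mRNAs tested, 6 did not overlap, *TIR3* and *TIR4* with 0 reads in New1-HTP included, beside 35.1% of all genes.

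Against untagged cells at 30 °C, *CCW12* was the only one of the 6 mRNAs tested that was called with Hel2-HTP in wildtype. It stood at 12770.4 and 12025.7 CPM with Hel2-HTP and at 4089.9 and 5375 CPM in untagged cells, and the fitted log2 difference was 2.46 (SE 0.40, adjusted p = 0.047, edgeR). Of 4233 genes tested, 39 (0.921%) passed, all of them higher with Hel2-HTP. The other 5 mRNAs were not separated from the background by this test. *CWP2* stood at 2027 and 3470 CPM in untagged cells and *CWP1* at 954 and 212 CPM, and both overlapped with Hel2-HTP. *CCW14* overlapped too, at 599 and 212 CPM in untagged cells. By plain CPM *TIP1* was lower in untagged cells without overlap, at 122 and 296 CPM, and *SED1* higher. In all, 3 of the 6 did not overlap, beside 41.6% of all genes. In the second untagged library *TIP1* had only 7 reads, *CWP1* 5 and *CCW14* 5, and 3 reads there make 127 CPM. The untagged libraries had TMM factors of 1.63 and 1.84 against 0.749 and 0.899 for the wildtype libraries, so a fitted difference lies above the ratio of plain CPM. For *CWP2* and *CCW14* this set the direction. The ratio of mean CPM was 0.946 and the fitted log2 difference 1.05 for *CWP2* (SE 0.55, adjusted p = 0.57, edgeR), and 0.755 and 0.64 for *CCW14* (SE 0.99, adjusted p = 0.94, edgeR). The *CCW12* call was lost with the size factors of DESeq2 (adjusted p = 0.060) and with a fit of only the 4 libraries compared (adjusted p = 0.22). Of the 6 libraries at 30 °C, leaving out any 1 but the second untagged library ended it, with adjusted p up to 0.35 and a log2 difference between 2.35 and 2.58.

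Genes of the same pathway were read from 7 lists of textbook members, beside 0% (wildtype) and 0.124% (*new1Δ*) of all genes called between temperatures and 1.39% (20 °C) and 0.497% (30 °C) between strains, so a count of 0 in a list of this size is close to the background. In Hel2-HTP libraries, 0 of 13 other wall proteins tested, 0 of 17 enzymes that remodel the wall, 0 of 11 genes of glucan and chitin synthesis, 0 of 21 of mannosylation, 0 of 18 of GPI anchor synthesis and transport and 0 of 12 of cell wall integrity signalling were called between temperatures or strains, in either direction. Their median changes in *new1Δ* lay between −2.43 (glucan and chitin synthesis) and −0.13 (other wall proteins) at 20 °C, beside −1.12 over all genes, and between −0.74 and 0.24 at 30 °C, beside 0.13. Of 9 other cold-induced genes, 0 were called between temperatures, and their median was 0.92 in wildtype and −0.88 in *new1Δ*. Of these 9, *HSP12* rose and *HSP26* fell in *new1Δ* at 20 °C and *HSP12* rose at 30 °C. *HSP12*, which encodes a small membrane-associated stress protein, stood at 1010.1 and 1210.0 CPM in wildtype and at 6809 and 8414 CPM in *new1Δ* at 20 °C (log2 change 2.63, SE 0.38, adjusted p = 3.3e-09, edgeR). At 30 °C it stood at 58.9 and 1045 CPM in wildtype and at 7177 and 12817 CPM in *new1Δ* (log2 change 5.51, SE 0.46, adjusted p = 1.9e-29, edgeR), and the change at 30 °C was larger than that at 20 °C (log2 difference −2.88, SE 0.55, adjusted p = 3.0e-04, edgeR). Unlike *SED1*, *HSP12* in untagged cells at 30 °C, at 174 and 0 plain CPM, lay far below both *new1Δ* libraries. The count of 0 allowed up to 127 CPM, and 174 CPM lay above the first wildtype library at 30 °C (58.9 CPM). *HSP26*, which encodes a small heat shock chaperone, was at 0 reads in both *new1Δ* libraries at 20 °C, with 57 and 242 reads in the wildtype ones (adjusted p = 0.0076, edgeR). At 30 °C its 66 and 272 reads in *new1Δ* stood beside 377 and 136 in wildtype.

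The 10 mRNAs did not rise and fall together. For this description the filter on low counts was applied to the 10 tagged libraries, where all but *TIR2* passed it. Over the 10 tagged libraries, log2 CPM of 9 mRNAs correlated pairwise with r between −0.62 (*SED1* and *CCW12*) and 0.58 (*CWP2* and *CCW12*). *SED1* correlated with the mean profile of the 9 at r = −0.07 and *TIR3* most, at r = 0.63. Each of the 9 is itself part of that profile. Among them *TIR1*, *TIR3* and *TIR4* had reads in only 3, 3 and 5 of the 10 libraries. The profile was closest to *GCD11* (r = 0.92), *UCC1* (0.86), *BUD31* (0.85), *PFS2* (0.83) and *LDO45* (0.83) among 5033 genes. These coefficients are descriptions over libraries that share groups, depth and runs.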

How the data were processed

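CRAC was measured in 14 libraries of BY4741 yeast. The authors aligned reads with novoalign and counted them with pyReadCounters (1.4.2 at 30 °C, 1.4.4 at 20 °C) on Ensembl release 74 features with UTRs and noncoding transcripts. The deposited counts are sense reads per feature, neither collapsed nor normalized, and a read on several features was counted on each, which can raise counts where features overlap. The deposited cDNA counts include both strands. The deposited RPKM values served only to recover feature lengths. Of 6454 protein-coding features, 5844 matched R64 by name (610 did not) and 5838 were used. Reads on unused features were 1.03% to 5.48% of mRNA reads. Sequences are from RefSeq (R64).

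The members and gene lists were chosen with earlier results of these data known. Named genes were the 10 mRNAs, at most 3 called genes per list, the 5 genes closest in profile, *NEW1* and *HEL2* (*HEL2*: 0 to 515 reads in tagged libraries). Of the listed genes, *DAN1* and *DAN2* were not matched.

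Counts were tested with edgeR 4.0.16 (R 4.3.3), by the quasi-likelihood F-test after TMM and filterByExpr, with p-values adjusted by Benjamini-Hochberg and a threshold of 0.05. The 8 Hel2-HTP libraries shared 1 fit, without a block for temperature and with the replicate pair within a temperature as a block for *new1Δ*, as the paper forms ratios per replicate and names 1 sequencing run per replicate. In a check of this pairing, deviations of wildtype and *new1Δ* libraries from their group means correlated weakly across genes (r = 0.015 for the 20 °C libraries, r = 0.054 for those at 30 °C). The 6 tagged libraries at 20 °C and 6 libraries at 30 °C had fits of their own without a block. Printed CPM are plain, and fitted changes use TMM. Profiles used log2 CPM with a prior count of 2. Scripts were tested on simulated data. Alternatives were DESeq2 1.42.0, its size factors in edgeR, no filter, at least 10 reads in every library, cDNAs in place of reads, only the libraries compared, the block added or removed, and each replicate left out. Python 3.11.15 with numpy 2.4.6, pandas 2.3.3 and, for plots, matplotlib 3.10.9 was used otherwise.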

Additional observations from a re-analysis of the deposited data

Results flagged for a closer look

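Reads on the strand opposite to a gene were not used in the comparisons, and the untagged libraries held 0 of them on the 10 mRNAs. In the tagged libraries, more than 3 such reads fell on *TIP1*, *TIR3* and *CCW12*, in 1 library each, and otherwise at most 2 on any of the 10 mRNAs. *TIP1* had 86 antisense reads in the first *new1Δ* Hel2-HTP library at 20 °C. *TIR3* had 52 antisense reads in the first New1-HTP library at 20 °C, from 1 cDNA. *CCW12* had 5 antisense reads in the second New1-HTP library at 20 °C. In the replicate of each of these libraries the same gene had 0 antisense reads. Whether transcription of the other strand or the library preparation gave them was not tested.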

How the results depend on the processing

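Every comparison had only 2 libraries a group, and leaving out single libraries turned the direction of *CCW14* most often. Over the fits of 6 mRNAs under the alternatives, 515 values kept their direction and their side of the threshold, 25 lost the call, 9 gained it and 43 turned direction, and the cause was not tested. Between temperatures, 1 of the 10 mRNAs (*CCW12*, none before) was called in wildtype with DESeq2, with DESeq2's size factors, with no filter on low counts and with the replicate block, and 1 (*CCW12*) in *new1Δ* with DESeq2, with no filter and with the replicate block, and leaving out single libraries gave 0 to 1 in *new1Δ*. For *new1Δ* against wildtype, removing the replicate block left 0 called at 20 °C and 0 at 30 °C (*SED1* before), and at 30 °C 0 were called with no filter, with at least 10 reads in every library and with only the libraries compared. Leaving out single libraries gave 0 to 1 at 20 °C and 0 at 30 °C. Against untagged cells, 0 were called with DESeq2's size factors and with only the libraries compared, 2 (*CCW12* and *CWP1*) with cDNAs, and 0 to 1 without single libraries. The ratio of the 10 mRNAs' share at 20 °C over 30 °C in wildtype was 0.51 of gene reads and 0.73 of reads on all features.

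Directions that turned were those of values that were not called. *TIP1* in *new1Δ* at 20 °C was −0.28 without the replicate block, and *CCW14* there was 0.23 with cDNAs. The *CCW12* difference between the changes at 20 °C and 30 °C was 0.34 with DESeq2, 0.34 with its size factors, 0.048 with no filter, 0.28 with at least 10 reads and 0.19 with cDNAs. *CCW12* with New1-HTP over Hel2-HTP was 0.10 with DESeq2, 0.10 with its size factors and 0.048 with at least 10 reads. Leaving out single libraries moved the wildtype temperature difference from −3.39 to 0.11 for *TIP1*, from −1.76 to 0.62 for *CWP1* and from −0.58 to 1.61 for *CCW14*, and that in *new1Δ* from −1.20 to 7.43 for *TIP1* and from −1.05 to 0.20 for *CCW14*. It moved the change in *new1Δ* at 20 °C from −2.53 to 3.16 for *TIP1* and from −1.81 to 1.18 for *CCW14*, and at 30 °C from −0.23 to 0.88 for *CWP1* and from −0.45 to 1.66 for *CCW14*. The difference of the changes ran from −1.87 to 0.64 for *CWP2*, from −0.31 to 1.32 for *SED1*, from −0.29 to 0.36 for *CCW12* and from −2.46 to 0.68 for *CCW14*. New1-HTP over Hel2-HTP ran from −0.31 to 0.14 for *CCW12* and from −0.51 to 1.404 for *CCW14*, and Hel2-HTP over untagged from −0.58 to 0.37 for *SED1* and from −0.43 to 1.74 for *CCW14*.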
